A study of Mus musculus with 2 samples.

Results

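The cells described here were tendon-type fibroblasts of the mouse embryo, fibroblasts whose RNA held Tnmd and Scx, found among the tdTomato-positive cells of E14 trunks and limbs. A barcode was kept when it held at least 1000 UMIs (unique molecular identifiers, each counting 1 captured RNA molecule) and at most 10% of them in mitochondrial genes. It was called tendon-type when Tnmd and Scx together gave at least 5 UMIs, Col3a1 at least 5, the cartilage genes Acan, Col9a1 and Matn1 together fewer than 10, the muscle gene Myog fewer than 5, and the endothelial genes Pecam1 and Cdh5 none. Of 22086 kept barcodes among 27766 deposited, 668 met these limits, of which 436 came from Het/tdT and 232 from MKO/tdT. Tnmd, Scx, Col3a1 and the other genes of the limits chose the cells, so their high or low level there is a description.

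The study deleted SRSF2, a splicing factor of the SR family, with Cre driven by Myf5, and asked what becomes of the Myf5-derived cells. Both groups carried Myf5-Cre and the tdT reporter. The mutant, MKO/tdT, was SRSF2f/f/Myf5-Cre/tdT, and the control, Het/tdT, was SRSF2f/w/Myf5-Cre/tdT, so the control carried 1 floxed allele too and no wild-type library entered the comparison. Embryos without head and viscera were dissociated, sorted on the reporter and captured with 10x Genomics 3′ chemistry, 1 library per genotype. The reporter marks cells with a history of Cre, so the sort aimed at descendants of cells that once had Myf5-Cre activity and not at the whole embryo. Its purity was not measured here. With 1 library per genotype no test of genotype was possible, and every interval below is a 95% interval of counting error only. The number of embryos behind each library was not given in the sources used here.

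Tendons join muscle to bone and are built by fibroblasts that lay down parallel fibres of type I collagen. Scleraxis (Scx), a bHLH transcription factor, marks tendon progenitors and drives their differentiation together with Mohawk (Mkx) and Egr1, and tenomodulin (Tnmd), a type II membrane glycoprotein, appears as the cells mature. TGF-β and FGF signals from neighbouring tissue and mechanical load from contracting muscle support this programme. In the limbs and trunk the connective tissues of dermis, fascia and muscle lie next to tendon and share most of its matrix genes.

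The 2 libraries carry contradictory names. The headings of the study's quality control give the library of 15268 deposited barcodes as Het/tdT and that of 12498 as MKO/tdT, whereas the titles of the deposited samples give the opposite. The headings were followed throughout, and under the titles every difference between the libraries below changes its sign. Srsf2 was the check of the names. In tendon-type cells Srsf2 was at 197 CPM in Het/tdT and 156 in MKO/tdT, where CPM stands for counts per 1000000 UMIs, both summed over the cells of 1 library. The log2 ratio of MKO/tdT over Het/tdT was -0.34 (-0.50 to -0.18), and paired values below give Het/tdT first. Srsf2 was lower in the library called MKO/tdT in every population set beside the tendon-type cells. Its log2 ratio was -0.55 in cells with Col3a1 but no Tnmd or Scx, and -0.38 in endothelial cells. Cells outside skeletal muscle were 10486 of 12144 kept barcodes in Het/tdT and 9851 of 9942 in MKO/tdT. UMIs from the 3′ end do not measure the loss of a floxed part whose position was not used here, and Srsf2 (GRCm38 chromosome 11, 116849901 to 116853094, minus strand) overlaps Mettl23 and Mfsd11 on the plus strand. Of the 13 genes of the SR protein list 12 had 200 or more UMIs, and none was 1.5-fold apart between the libraries (median log2 ratio -0.01). Over all measured genes of tendon-type cells 2.88% were 1.5-fold higher and 2.94% lower, so none of 12 says little about this list.

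Depth allowed close description of the cells but few rare genes. Summed UMIs of tendon-type cells were 5150243 (Het/tdT) and 3196628 (MKO/tdT). The median cell had 9883.5 UMIs and 3091 genes in Het/tdT, and 11474 UMIs and 3309.5 genes in MKO/tdT. Mitochondrial genes took a median of 3.53% and 3.09% of a cell's UMIs. The 17 stress genes that rise during tissue dissociation (Fos, Jun, Atf3, Hspa1a and the like) took 1.05% and 1.43%, so the MKO/tdT cells carried more of this signal. Kept cells of both libraries shared 41 barcode sequences, none of them tendon-type in both. Markers of other lineages made up 1% or more of the UMIs in 2 Het/tdT and 2 MKO/tdT tendon-type cells.

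The label was checked against markers that the rule had not used, and the secreted and matrix ones were present. The study had named C1qtnf3 and Thbs4 for a fibroblast subcluster of the same data. C1qtnf3, a secreted C1q and TNF related protein (chromosome 15, 10952332 to 10980150, plus strand), was at 627 CPM in Het/tdT and 789 in MKO/tdT. That was 11.6-fold and 15.1-fold its level in comparison cells, which met every other limit but had no UMI of Tnmd or Scx (4255 and 2184 cells). Thbs4, thrombospondin 4, an adhesive glycoprotein of tendon matrix (chromosome 13, 92751590 to 92794818, minus strand), was at 244 and 117 CPM, 10.6-fold and 8.50-fold the comparison cells. Keratocan (Kera), a small leucine-rich proteoglycan, was 10.4-fold and 7.16-fold higher, and Mkx was at 23.9 and 14.7 CPM. Against comparison cells, only Scx of 8 measured tendon transcription factors was 2-fold higher in both libraries, and Scx chose the cells. The median log2 ratio of that list was 0.53 in Het/tdT and -0.04 in MKO/tdT. Egr1 was at 1378 and 1283 CPM against 1154 and 1489 in comparison cells, and Sox9 at 139 and 133 against 107 and 161. A bare gate on raw UMIs cannot separate tendon from ligament or from other dense connective tissue with these genes, so the cells are called tendon-type.

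Thbs4 and C1qtnf3 are the markers outside the rule whose library ratios went in opposite directions, so their promoter windows are printed. Each window holds the 250 bases before the RefSeq start in GRCm38.p6, on the strand of the gene, and capitals mark CANNTG, the E-box that bHLH factors such as Scx can bind.
Thbs4, chr13:92794819-92795068, minus strand: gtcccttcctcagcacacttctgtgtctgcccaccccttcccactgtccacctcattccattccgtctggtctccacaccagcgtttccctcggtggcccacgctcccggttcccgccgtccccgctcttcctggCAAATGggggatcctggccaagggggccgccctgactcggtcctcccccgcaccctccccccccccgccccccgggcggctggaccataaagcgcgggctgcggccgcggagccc
C1qtnf3, chr15:10952082-10952331, plus strand: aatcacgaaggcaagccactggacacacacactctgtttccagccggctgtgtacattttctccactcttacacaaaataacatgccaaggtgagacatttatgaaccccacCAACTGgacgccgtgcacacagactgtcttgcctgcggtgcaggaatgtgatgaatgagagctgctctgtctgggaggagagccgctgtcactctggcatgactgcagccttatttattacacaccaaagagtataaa
Each window had 1 match, CAAATG beginning 115 bases before the start in Thbs4 and CAACTG 138 bases before it in C1qtnf3. The motif is its own reverse complement in form, so both strands were searched at once. Of 32851 windows of the same length 66.2% held at least 1 such match, and the Tnmd window held none. A match is a string of letters and not a measured binding site.

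Against the comparison cells, tendon-type cells stood out by secreted and matrix genes. A gene was measured when each library had at least 50 UMIs of it in tendon-type cells, or would have had as many there at the level of the comparison cells, so that genes low in tendon-type cells were not lost. Of 6788 such genes 53 (0.781%) were 2-fold or more higher in both libraries and 38 (0.56%) were 2-fold or more lower. The tendon-type cells themselves held 50 UMIs in each library for 14 of the 38 and for all 53. The rule chose the cells on counts of the same cells, so these shares describe and test nothing. Of 35 measured genes of the tendon matrix list 13 were higher and 0 lower, Tnmd among the 13 because it chose the cells, and the list's median log2 ratio was 0.98 in Het/tdT and 0.68 in MKO/tdT against 0.02 in both for all measured genes. Members of that list were asporin (Aspn, 3.49-fold and 3.11-fold), a proteoglycan that binds collagen, Fibin (3.44-fold and 3.06-fold), a secreted protein of fin and limb buds, and Chodl (4.35-fold and 6.54-fold), a C-type lectin membrane protein. None of 17 measured genes in the list of fibrillar and associated collagens was 2-fold higher, and their median log2 ratio was 0.53 and 0.45. Outside that list the membrane collagen Col25a1 was 5.09-fold and 2.39-fold higher.

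Genes outside the tendon list were among the highest too. Zfp185, which encodes an actin-associated LIM domain protein, was 16.9-fold and 7.47-fold higher, and C1ql3, a secreted C1q-like protein, 7.23-fold and 5.74-fold. The homeobox gene Meox1, which acts in the somite and its sclerotome, was 5.70-fold and 3.36-fold higher. Wfdc2, Ssc5d, Calca, Cdh3, Prss35, Olfml2b, Gas2, Tnn, Abi3bp and P4ha3 completed the 20 highest outside the rule together with those named above and Prg4, lubricin of gliding surfaces, at 4.87-fold and 3.41-fold. For Calca 42.7% of the 89 MKO/tdT UMIs lay in 1 cell. Among signalling genes Tgfb3, a TGF-β ligand, was 2-fold higher in both libraries. Genes 2-fold lower in both that held 50 UMIs in tendon-type cells of each library included Osr2, a transcription factor of muscle connective tissue, Crabp1, which is known from dermis, and the osteoblast gene Ibsp. Osr1, Lef1, Wnt4 and Alpl were 2-fold lower as well, from fewer UMIs.

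Levels were also read in 3 neighbouring kinds of fibroblast, all with fewer than 5 UMIs of Tnmd and Scx together. That limit fixed in advance part of the difference in genes that rise with Tnmd and Scx. Dermal-type cells had at least 3 UMIs of Twist2 (1015 in Het/tdT and 516 in MKO/tdT), fascia-type cells at least 5 of Dpt and Clec3b (685 and 190), and muscle connective-type cells at least 3 of Osr1 and Meox2 (543 and 239). Thbs4 was at 52.3 and 49.8 CPM in muscle connective-type cells, 26.2 and 9.05 in fascia-type and 5.40 and 7.12 in dermal-type cells. The order was the same in both libraries, with tendon-type cells first, but the intervals of fascia-type and dermal-type cells overlapped in MKO/tdT. C1qtnf3 reached 106 and 132 CPM in fascia-type cells, the highest of the neighbours, and 79.5 and 43.4 in muscle connective-type cells. Over all kept barcodes outside the rule it was at 168 and 165 CPM, so cells other than these fibroblasts carried it at a higher level than the neighbours did. Decorin (Dcn), a proteoglycan of loose and dense connective tissue, went the other way, at 645 and 597 CPM in tendon-type cells and 1805 and 2098 in fascia-type cells. Other genes lay closer. Abi3bp was at 239 and 214 CPM in tendon-type and 178 and 211 in fascia-type cells. The collagen gene Col14a1 was at 582 and 448 CPM in tendon-type and 530 and 360 in fascia-type cells. Endothelial barcodes should lack these genes, and their 10.3 and 3.13 CPM of Thbs4 and 36.6 and 36.1 CPM of C1qtnf3 are only a guide to what free RNA can add. Their median UMIs, 15675 and 18556, were above those of tendon-type cells, and doublets were not removed, so the level in tendon-type cells can differ.

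**Figure D1:**
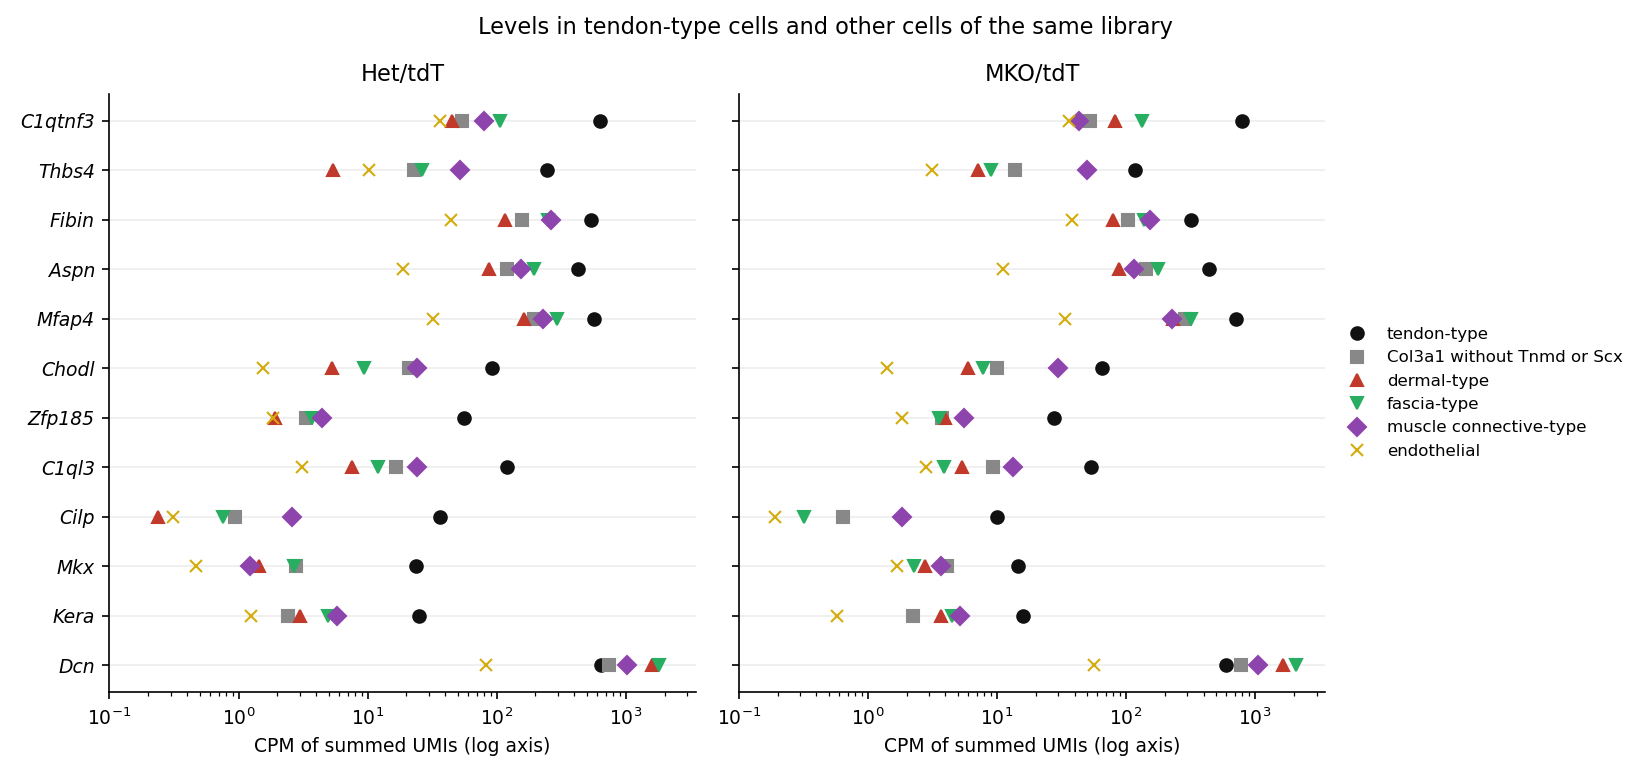
CPM of summed UMIs (log axis) of 12 genes in tendon-type cells and 5 other populations, Het/tdT left and MKO/tdT right, 1 symbol per population. Tendon-type cells (black) lie highest for every gene drawn but Dcn, where fascia-type cells reach 1805 and 2098 CPM. A level of 0 has no symbol on this axis.

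The limit of 5 UMIs cut through a gradient. Just outside it, at 3 or 4 UMIs of Tnmd and Scx, there were 215 Het/tdT and 148 MKO/tdT cells, and just inside, at 5 or 6, 125 and 61. C1qtnf3 was at 338 and 307 CPM just outside and 503 and 544 just inside. Thbs4 was at 117 CPM just outside and 160 CPM just inside in Het/tdT, and at 21.2 CPM on either side in MKO/tdT. In the cells with 20 or more UMIs (60 and 38) Thbs4 reached 415 and 317 CPM, C1qtnf3 797 and 1045, and Kera 82.3 and 42.2. Twist2, a bHLH factor of dermal fibroblasts, was at 28.3 and 162 CPM just outside, 49.1 and 90.8 just inside, and 6.33 and 10.6 at 20 or more. It was thus lowest at 20 or more UMIs in both libraries, but rose across the limit in Het/tdT. The MKO/tdT cells near the limit thus held little Thbs4 and more Twist2 than the Het/tdT cells there. At 20 or more UMIs the libraries were closer for Thbs4 and Twist2, and not for Kera.

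**Figure D2:**
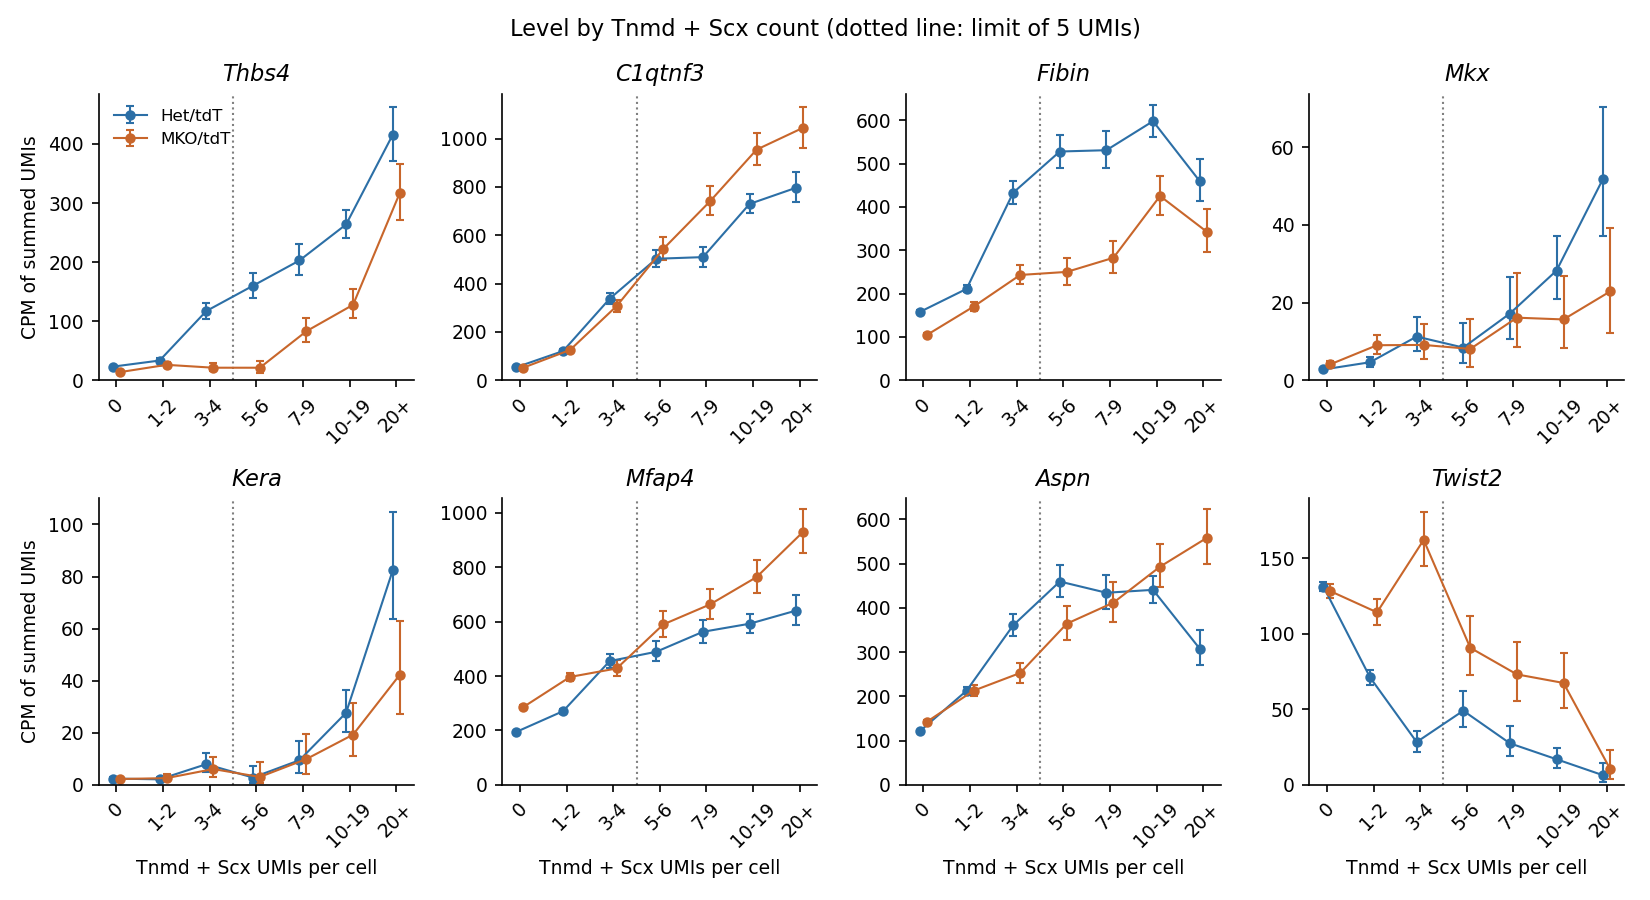
CPM of summed UMIs (y axis) against the UMIs of Tnmd and Scx per cell (x axis), Het/tdT in blue and MKO/tdT in orange, bars 95% Poisson intervals, dotted line the limit of 5. Thbs4 stays at 21.2 CPM on both sides of the limit in MKO/tdT and reaches 317 CPM at 20 or more, while Twist2 falls to 6.33 and 10.6 CPM.

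Tendon-type cells differed among themselves. Clustering of the 668 cells gave 8 subgroups, numbered by size and left unnamed, since their leading genes come from the cells that were clustered. Subgroup 1 (132 cells) was led by histone genes, Top2a and Mki67, genes of dividing cells. Subgroup 3 (114 cells) had Ndnf, Dcn, Prss35, Abi3bp and Fmod among its leading genes, with 1536 CPM of Tnmd and 1310 of C1qtnf3, and its first gene was the haemoglobin Hbb-bs. Subgroup 4 (107 cells) was led by Thbs4, Chodl and Spon2, with C1ql3 and Cilp, and held 599 CPM of Thbs4. Subgroup 5 (81 cells) had Tnn, Fgfr2, Igfbp5 and Runx2 and only 41.7 CPM of Thbs4.

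Further subgroups carried genes of other programmes. Subgroup 2 (121 cells) had Apoe, Lgals3 and Hbegf, and subgroup 7 (36 cells) had Mfap5, Clec3b, Cd55 and Cd248, known from fascia, with 32.7 CPM of Scx. Subgroup 6 (57 cells) was led by the smooth muscle actin gene Acta2, Cxcl14, Tagln and Twist2, with 21415 CPM in stress genes and 21.2 CPM of Thbs4. Subgroup 8 (20 cells) was led by Prph, Sncg and Tubb3, genes of neurons. Het/tdT and MKO/tdT gave 88 and 44 cells of subgroup 1, 84 and 37 of subgroup 2, 62 and 52 of subgroup 3, 82 and 25 of subgroup 4, 60 and 21 of subgroup 5, 16 and 41 of subgroup 6, 30 and 6 of subgroup 7, and 14 and 6 of subgroup 8. These sizes are given as a description, because the leading genes of the subgroups differed between the libraries. Thbs4 was lower in MKO/tdT in 6 of the 8 subgroups, at 285 and 131 CPM in subgroup 1, 169 and 74.4 in subgroup 2 and 299.8 and 92.1 in subgroup 3. In subgroup 4, which Thbs4 leads, it was at 555 CPM in 82 Het/tdT cells and 756 CPM in 25 MKO/tdT cells, and in subgroup 5 at 38.3 and 50.5 CPM.

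Tendon-type cells made up 3.59% (3.27 to 3.94) of kept Het/tdT barcodes and 2.33% (2.05 to 2.65) of kept MKO/tdT barcodes, Clopper-Pearson intervals. That is a 1.54-fold lower share with MKO/tdT (log2 ratio -0.62, -0.85 to -0.39). Among barcodes with at least 5 UMIs of Col3a1 the shares were 6.21% and 5.67%, and the log2 ratio of -0.13 had an interval across 0 (-0.35 to 0.09). Endothelial barcodes numbered 342 and 914, so the makeup of the remaining cells differed between the libraries. Fewer tendon-type cells and more cells of other kinds cannot be told apart in such shares, and the sort and the dissociation act on them.

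The UMIs of Tnmd and Scx by which cells met the limit were divided as follows, as a description of values the rule used. Both Tnmd and Scx were detected in 297 cells of Het/tdT, or 68.1% (63.5 to 72.5), and in 121 of MKO/tdT, or 52.2% (45.5 to 58.7). Cells that met it on Tnmd with no Scx UMI numbered 123 (28.2%) and 105 (45.3%), and cells with Scx and no Tnmd 16 and 6. Of all barcodes, those tendon-type with both genes were 2.45% in Het/tdT and 1.22% in MKO/tdT.

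Scx was past 1.5-fold lower in MKO/tdT and Tnmd was within 1.5-fold, both being genes that chose the cells. Tnmd (chromosome X, 133850980 to 133865577, plus strand) was at 812 CPM (Het/tdT) and 769 CPM (MKO/tdT), with a log2 ratio of -0.08 (-0.15 to -0.01). Scx (chromosome 15, 76457452 to 76459458, plus strand) was at 220.0 and 114 CPM, a log2 ratio of -0.95 (-1.12 to -0.78). It had a UMI in 71.8% and 54.7% of cells, and in 42.2% and 29.4% after each cell was thinned to 3000 UMIs, against 1.46% and 1.42% of thinned endothelial barcodes. Scx was read again in the 346 Het/tdT and 204 MKO/tdT cells that had at least 5 UMIs of Tnmd alone. There it was at 194 and 106 CPM, a log2 ratio of -0.88 (-1.08 to -0.68). In the 419 and 156 cells chosen on at least 2 UMIs of Scx alone, Tnmd was at 470.1 and 488 CPM, a log2 ratio of 0.05 (-0.05 to 0.16). All cells that met the other limits, whatever their Tnmd and Scx (5832 and 3067, the tendon-type cells included), had a log2 ratio of -0.35 for Scx and 0.28 for Tnmd. Scx lies across Bop1 on the other strand, and reads of overlapping genes can be assigned to either.

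**Figure D3:**
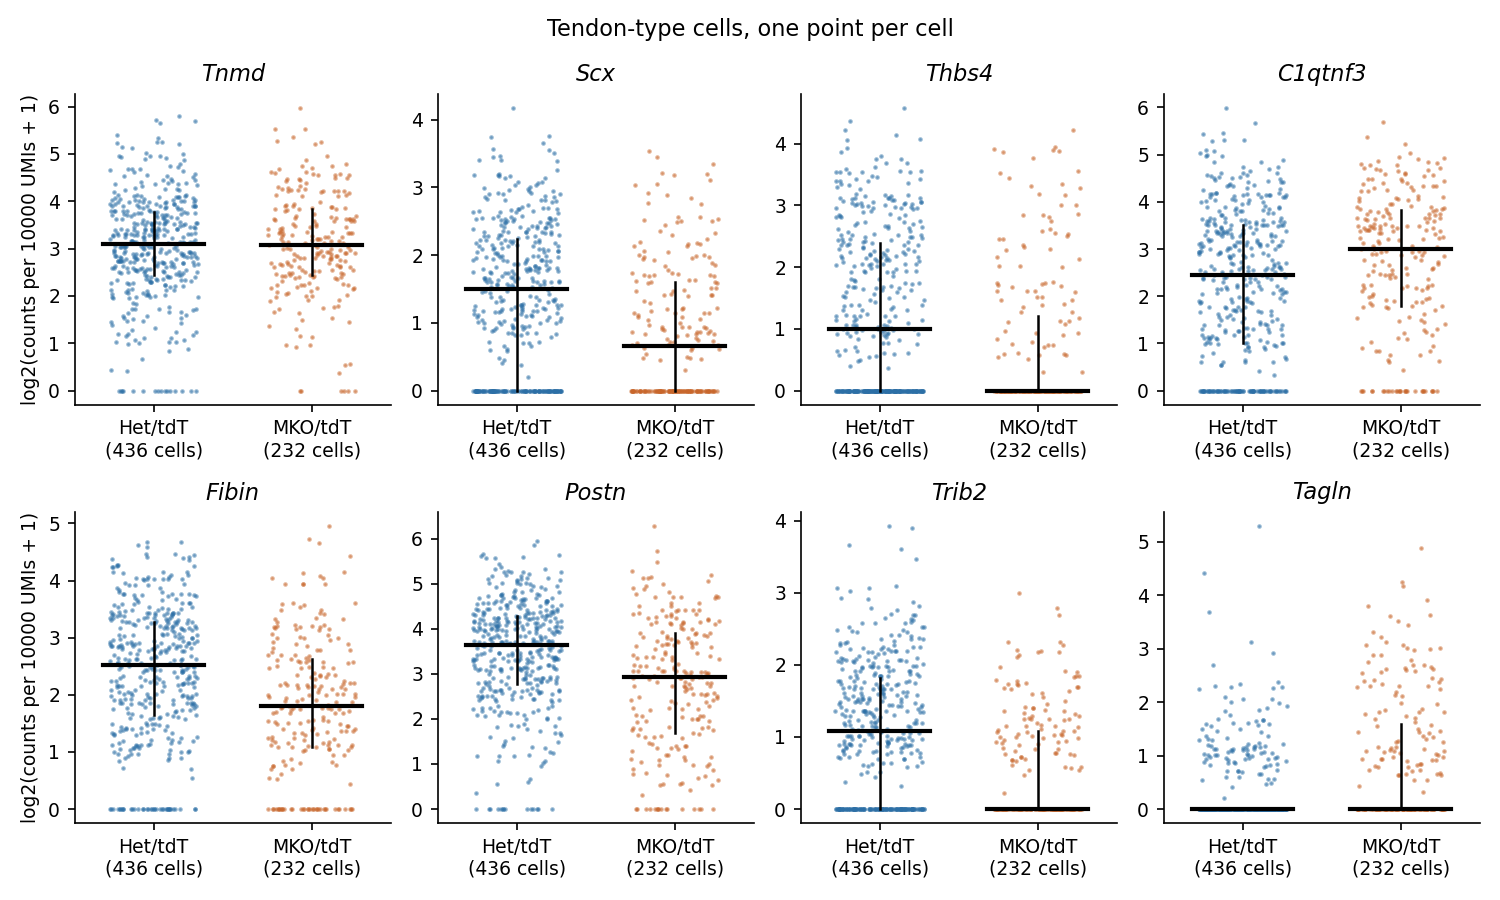
Each point is 1 tendon-type cell (436 Het/tdT, 232 MKO/tdT) on log2(counts per 10000 UMIs + 1), with the median as a line and the quartiles as a bar. Medians of Tnmd are level at 7.55 and 7.39 counts per 10000, while those of Scx are 1.82 and 0.572 and most MKO/tdT cells have no Thbs4.

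Across all genes few were past 1.5-fold in either direction. Of 5236 genes with at least 200 UMIs in tendon-type cells, 151 (2.88%) were 1.5-fold or more higher in MKO/tdT and 154 (2.94%) 1.5-fold or more lower. Centred on the median ratio the counts were 173 and 123, and with haemoglobin, mitochondrial and ribosomal protein genes left out of the totals 143 and 185, so which direction had more genes depended on the scaling. The median log2 ratio of all measured genes was -0.04 with an SD of 0.40 over genes. Single cells made up part of it. In 34 of these genes 1 cell held 25% or more of a library's UMIs. With the highest cell of each library left out for each gene 113 were higher and 176 lower. A single cell is a larger part of 232 MKO/tdT cells than of 436 Het/tdT cells, so this step tends to lower ratios by itself. The change in these counts thus does not measure what single cells added. In the comparison cells 67 of the 151 and 30 of the 154 were also 1.5-fold apart in the same direction, where 562 of 11211 genes were 1.5-fold higher and 545 lower. The 2 counts were not tested against each other. The shares of 2.88% and 2.94% are the background for the list counts between the libraries, and no list count was tested against them.

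Among further transcription factors of tendon, none of those measured was 1.5-fold higher. Mkx had fewer than 200 UMIs and was at 23.9 and 14.7 CPM (-0.70, -1.22 to -0.20). Egr1, which is also a stress gene, was at 1378 and 1283 CPM, and Sox9, expressed by progenitors shared with cartilage, at 139 and 133. These last differed by far less than 1.5-fold.

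Among secreted and matrix genes of tendon, 35 of 43 were measured, 7 were 1.5-fold lower in MKO/tdT and 1 higher, with a median log2 ratio of -0.10 in tendon-type and 0.04 in comparison cells. Thbs4 was at 244 and 117 CPM, a log2 ratio of -1.06 (-1.23 to -0.90), with a UMI in 58.3% and 35.3% of cells. In thinned cells the shares were 36.9% and 19.05%, against 2.92% and 0.438% of endothelial barcodes. Thbs4 was also lower in comparison cells (-0.74), fascia-type cells (-1.53, -2.15 to -0.96) and endothelial barcodes (-1.71, -2.23 to -1.20). It was not lower in muscle connective-type cells (-0.07, -0.34 to 0.20) or dermal-type cells (0.40, -0.14 to 0.94). Cilp, cartilage intermediate layer protein, was at 36.7 and 10.0 CPM (-1.87, -2.46 to -1.33). Fibin was at 542 and 320.3 CPM (-0.76, -0.86 to -0.66). Periostin (Postn), a matricellular protein that crosslinks collagen fibrils, was at 1244 and 772 CPM (-0.69, -0.75 to -0.62). Both Fibin and Postn fell under the 1.5-fold limit in the cells chosen on Scx alone (-0.35 and -0.43). For Postn the ratio in neighbouring cells was similar, at -0.73 in dermal-type, -0.74 in fascia-type and -0.64 in muscle connective-type cells, and endothelial barcodes with little Postn had -1.10. The proteases and adhesive proteins Htra3 (-0.99) and Thbs3 (-0.72) and the microfibril gene Mfap5 (-1.35, 20.0% of its MKO/tdT UMIs in 1 cell) made up the 7.

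Keratocan (Kera) had fewer than 200 UMIs and was at 25.05 and 15.95 CPM (-0.65, -1.15 to -0.17), and -0.04 (-0.65 to 0.55) in cells chosen on Scx alone. Further tendon genes were within 1.5-fold or higher. C1qtnf3 had a log2 ratio of 0.33 (0.25 to 0.41), under the 1.5-fold limit, and a UMI in 80.5% and 87.9% of cells, or 62.4% and 73.2% after thinning. In comparison cells C1qtnf3 had -0.05, in dermal-type cells 0.86 and in muscle connective-type cells -0.87, so its direction depended on the kind of fibroblast. Aspn was at 424 and 444 CPM, fibromodulin (Fmod), a proteoglycan of collagen fibrils, at 75.9 and 75.1, and Mfap4, a microfibril protein, at 565 and 714. Tenascin C (Tnc) was at 119 and 95.1 CPM (-0.33, -0.53 to -0.13). The gene 1.5-fold higher was Clec11a, a secreted growth factor for bone, at 19.4 and 34.7 CPM (0.84).

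RNA of fibre collagens was mostly within 1.5-fold, as was that of most measured genes (2.88% higher and 2.94% lower). Of 17 measured of the 21 fibrillar and associated collagens listed, 2 were 1.5-fold higher and 0 lower, with a median log2 ratio of 0.00. Col1a1 was at 3794 and 3426 CPM (-0.15) and Col1a2 at 3881 and 3913 (0.01). Col12a1, a collagen on the surface of fibrils, was at 610.5 and 626 CPM, and Col14a1, of the same class, at 582 and 448 (-0.38). The higher ones were Col26a1 (35.1 and 72.6 CPM, 1.05) and Col8a1 (51.1 and 76.6 CPM, 0.59). Outside the list Col25a1 was lower, at 49.7 and 29.7 CPM (-0.74, -1.10 to -0.40). Of 25 measured enzymes and chaperones of collagen only Pcolce, which enhances cleavage of the procollagen end, was past the limit, at 115.0 and 190.2 CPM (0.73). Lysyl oxidase (Lox), which crosslinks the fibres, was at 172 and 239 CPM (0.47, 0.33 to 0.61).

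Of matrix turnover genes Ctsk was higher (0.59) and the metalloprotease inhibitor Timp3 lower, at 280 and 164 CPM (-0.77), where comparison cells had 0.29. The basement membrane list had Col18a1 lower (-0.97) among 11 measured.

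Of 23 measured genes in the list of integrins, adhesion and mechanics 7 were 1.5-fold higher in MKO/tdT and 0 lower, with a median log2 ratio of 0.05. These 7 were not integrins but the actin-based genes Tagln, Acta2, Myl9, Tpm1 and Tpm2 and the syndecans Sdc2 and Sdc4, which are coreceptors for matrix and growth factors. Tagln, transgelin (chromosome 9, 45929619 to 45936058, minus strand), was at 61.0 and 209 CPM, a log2 ratio of 1.78 (1.58 to 1.98), and had a UMI in 24.8% and 47.4% of cells (8.95% and 29.0% after thinning). In cells chosen on Scx alone Tagln had 1.01 (0.77 to 1.25), with a UMI in 27.9% and 30.1% of cells. Endothelial barcodes had a Tagln level of 27.8 and 12.5 CPM, lower in MKO/tdT. Subgroup 6, which these genes lead, held 41 of the 232 MKO/tdT and 16 of the 436 Het/tdT cells. Tagln was higher in dermal-type (1.17) and fascia-type cells (1.39) and lower in comparison cells (-0.32). Acta2 was at 52.8 and 188 CPM (1.83), with 26.1% of its Het/tdT UMIs in 1 cell, and 2.13 without the highest cell of each library. In the 419 and 156 cells chosen on Scx alone Acta2 was at 69.8 and 71.0 CPM (0.02, -0.26 to 0.30). Markers of pericytes, which also express these genes, summed to 89.7 and 81.6 CPM.

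The stress genes moved in the same direction. Of 16 measured stress genes 6 were 1.5-fold higher in MKO/tdT and 0 lower, with a median log2 ratio of 0.44, and the comparison cells had 0.50. Atf3 was at 367 and 771 CPM (1.07), Jun at 1889 and 3440 (0.86) and Ier3 at 203 and 429 (1.08), transcription factors and a survival gene of the immediate early response. Endothelial barcodes had -0.22 for Jun and 0.08 for Atf3, while Hspa1a, a heat shock chaperone with 1.18 in tendon-type cells, had 1.28 there too. The p53 targets Cdkn1a (101 and 180 CPM, 0.83) and Btg2 (0.64) were higher as well, 2 of 7 measured in their list.

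Because stress differed between the libraries, the tendon-type cells were divided at the pooled median of the share of stress UMIs, which left 243 Het/tdT and 91 MKO/tdT cells at or below it and 193 and 141 above it. Thbs4 was at 275 and 217 CPM in the cells at or below the median (-0.34, -0.55 to -0.13) and at 206 and 62.0 CPM above it (-1.73, -2.02 to -1.45). Its ratio thus lay largely in the cells with more stress UMIs. In cells chosen on Tnmd alone the corresponding values were -0.09 (-0.32 to 0.12) and -1.69 (-2.0 to -1.39). Scx was lower in both, with -0.64 (-0.89 to -0.41) and -1.04 (-1.30 to -0.78). Acta2 had 0.49 and 2.84, and Tagln 1.26 and 1.97. Fibin (-0.45 and -0.94) and Postn (-0.46 and -0.85) were past 1.5-fold only above the median. C1qtnf3 was higher at or below the median (0.59, 0.47 to 0.70) and not above it (0.09, -0.02 to 0.19). Cpm (-1.50 and -1.51) and Trib2 (-0.98 and -1.26) were lower on both sides. The part of dissociation in these differences was not tested.

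**Figure D4:**
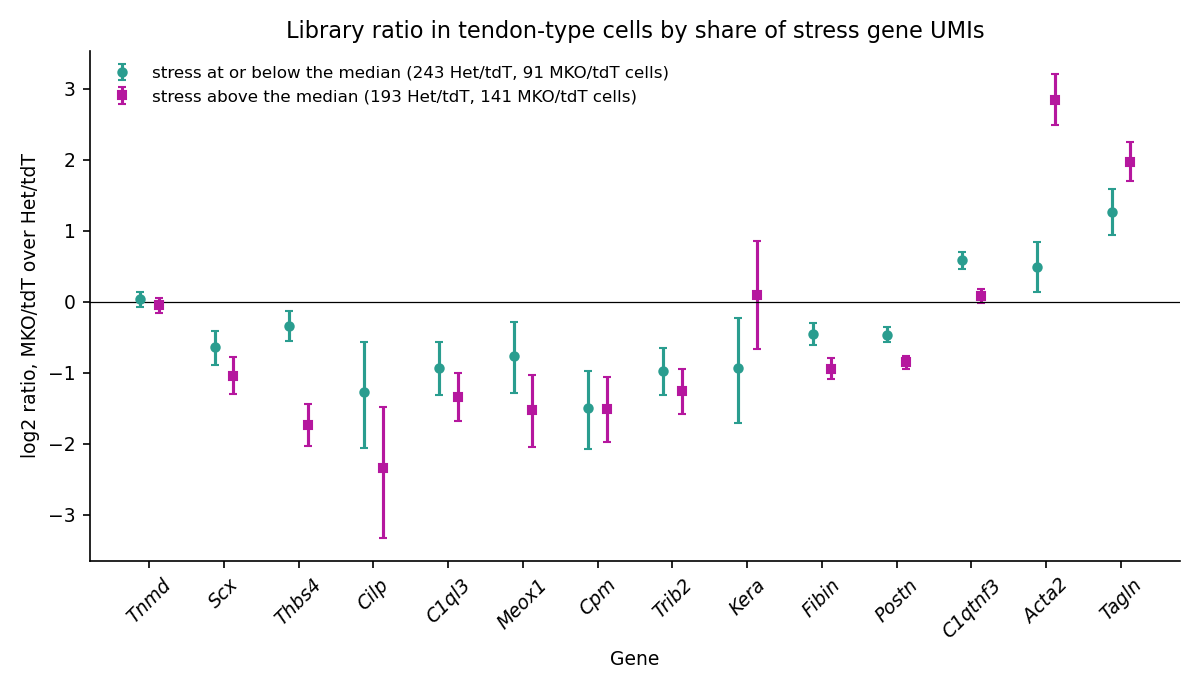
Log2 ratio of MKO/tdT over Het/tdT (y axis) for 14 genes (x axis) in tendon-type cells at or below the pooled median of the stress share and above it, bars 95% intervals of counting error. Thbs4 differs most between the sets on the lower side, with -0.34 and -1.73, while Scx, Cpm and Trib2 are lower in both.

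Several lower genes were within 1.5-fold in the comparison cells. Trib2, a pseudokinase, was at 152 and 66.6 CPM (-1.19, -1.41 to -0.97), with a UMI in 68.3% and 43.5% of cells (32.6% and 15.2% after thinning), and had 0.11 in comparison cells, but -1.06 (-1.61 to -0.56) in fascia-type and -0.41 (-0.71 to -0.12) in muscle connective-type cells. Cpm, a membrane carboxypeptidase, was at 79.4 and 27.5 CPM (-1.53, -1.88 to -1.19), against 0.27 in comparison cells, and had -0.63 (-1.0 to -0.28) in cells chosen on Scx alone. Zfp185 was at 56.3 and 27.8 CPM (-1.02) against 0.16, with 1.05 (0.23 to 1.89) in dermal-type cells. C1ql3 was at 121 and 53.2 CPM (-1.18, -1.43 to -0.93) and Meox1 at 63.1 and 27.2 (-1.21, -1.57 to -0.87), and these also had negative ratios in comparison cells, of -0.85 and -0.45. In cells chosen on Scx alone C1ql3 was under the 1.5-fold limit (-0.56). Tmod2, an actin filament capping gene, was at 36.3 and 13.8 CPM (-1.40).

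Genes higher in MKO/tdT divided in the same manner. Hmox1, the haem-degrading enzyme, was at 24.9 and 80.7 CPM (1.70, 1.39 to 2.02), and Cwc22, a spliceosome factor, at 20.8 and 59.4 CPM (1.52, 1.17 to 1.87). Both were as far apart in comparison cells (1.75 and 1.74) and in endothelial barcodes (1.38 and 1.94), so the difference was not particular to tendon-type cells. Igfbp2, which binds insulin-like growth factors, was at 63.7 and 214 CPM (1.75, 1.55 to 1.94) against 1.14 in comparison cells. Ptx3, a pentraxin of inflammation, was at 34.6 and 103 CPM (1.57) against 0.12, and Cxcl14, a chemokine, at 23.7 and 113 CPM (2.25) against 0.59. Twist2 was at 26.6 and 66.0 CPM (1.31, 0.99 to 1.63) against -0.03. Of 6 measured dermal marker genes Twist2 and Foxd1 (0.91, comparison cells 1.5) were higher and 0 lower, and the whole list of 10 summed to 645 and 786 CPM, most of it Twist1, with 1063 and 1247 in comparison cells.

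**Figure D5:**
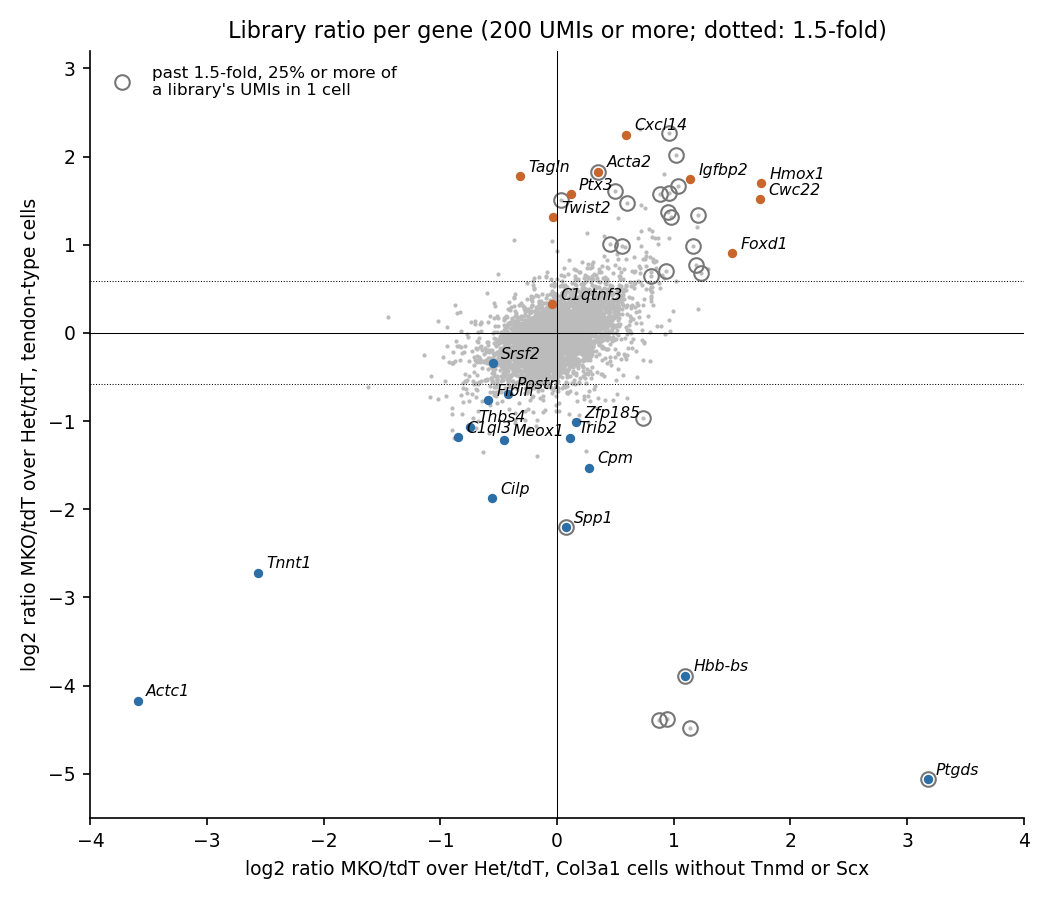
Log2 ratio of MKO/tdT over Het/tdT per gene in tendon-type cells (y axis) against the same in comparison cells (x axis), genes with 200 or more UMIs, dotted lines at 1.5-fold, open circles for genes with 25% or more of a library's UMIs in 1 cell. Hmox1 and Cwc22 lie far to the right and above 0, Tagln and Twist2 above 0 at -0.32 and -0.03 on the x axis, and Cpm and Trib2 below 0 at 0.27 and 0.11. Genes beyond the axis limits, S100a8 and Cma1 among them, are not drawn.

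Signalling genes of tendon development are counted here beside the share over all measured genes, of which 2.88% were 1.5-fold higher and 2.94% lower. Of 16 measured TGF-β genes 1 was lower, the latent TGF-β binding protein Ltbp4, at 60.8 and 33.5 CPM (-0.86), and 0 were higher. The ligands Tgfb2 (208 and 164 CPM, -0.34) and Tgfb3 (55.1 and 51.6 CPM, -0.10) were within 1.5-fold. Of 13 BMP and GDF genes the ligand Bmp5 (-0.85) and the antagonist Grem1 (56.5 and 33.8 CPM, -0.74) were lower, and the antagonist Noggin (Nog) was higher at 18.1 and 37.5 CPM (1.06, 0.65 to 1.46). Of 8 FGF genes the feedback inhibitors Spry1 (84.3 and 53.8 CPM, -0.65) and Spry4 (45.1 and 22.2 CPM, -1.02) were lower and 0 higher. Etv4 and Etv5, further targets of FGF signals, had fewer than 200 UMIs and ratios of -1.63 and -0.84. Of 10 Wnt genes the receptor Fzd8 was lower (-0.66), and the secreted antagonists Sfrp1 (0.74) and Sfrp2 (217 and 336 CPM, 0.63) were higher.

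Growth and metabolic lists stand beside the same share over all measured genes, 2.88% higher and 2.94% lower. In the IGF list Igfbp2 was higher among 10 measured. Plagl1 was lower among 14 imprinted growth genes, at 604 and 394 CPM (-0.62), and this list's median was -0.29. Of 14 genes of hypoxia and glycolysis Ero1l (0.84) and Ndrg1 (0.62) were higher and 0 lower, with a median of 0.23.

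Cycling cells were as frequent in both libraries within counting error. Cells with at least 3 UMIs of Mki67, Top2a and Cdk1 were 110 of 436 (25.2%) in Het/tdT and 64 of 232 (27.6%) in MKO/tdT, with a log2 ratio of 0.13 (-0.25 to 0.51). In comparison cells the shares were 32.2% and 18.2%, a log2 ratio of -0.82 (-0.96 to -0.68). The interval for tendon-type cells did not reach that value. In cells thinned to 3000 UMIs, a UMI of these genes was found in 32.8% and 29.9% of tendon-type and 39.1% and 24.5% of comparison cells. The replication genes Mcm5 (-0.92) and Mcm6 (-0.71) were 1.5-fold lower among 19 measured cell cycle genes, with a list median of -0.17 in tendon-type and -0.77 in comparison cells. Scx had about the same ratio in cycling cells (-0.98) and in the rest (-0.95), as had Thbs4 (-1.16 and -1.01).

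Genes of position along the body were mostly detected in few cells. Tbx5 of the forelimb had a UMI in 2.52% and 2.16% and Pitx1 of the hindlimb in 4.59% and 3.45%, and after thinning Pitx1 was in 1.15% and 1.30% against 0.292% and 0.329% of endothelial barcodes. The trunk gene Hoxc8 had a UMI in 32.1% and 25.4% of cells (14.4% and 7.79% after thinning, against 2.05% and 0.767% of endothelial barcodes), and Hoxc10 in 13.5% and 14.7% (4.82% and 4.33%, against 1.17% and 1.42%). Pax1, of the sclerotome, was in 15.1% and 21.1% (6.19% and 8.23%, against 0.585% and 1.10%). Meox2, of somite and limb, was in 54.6% and 44.0% (21.8% and 22.5% after thinning), against 8.08% and 9.71% of thinned comparison cells and 17.3% and 17.5% of thinned endothelial barcodes, where its level was 66.6 CPM in both libraries. Of the 30 genes of this list 3 were measured, and only Meox1 was past 1.5-fold.

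Markers of other cell types were summed to show what else moved. Of the 24 skeletal muscle markers the sum was 214 CPM in Het/tdT and 45.05 in MKO/tdT, and 409 and 69.1 in comparison cells. Actc1, the most abundant of them in Het/tdT, had a log2 ratio of -4.17 in tendon-type cells, -3.60 in comparison cells and -2.63 in endothelial barcodes, and Tnnt1 had -2.72, -2.57 and -2.31. Muscle RNA was thus lower in MKO/tdT in tendon-type, comparison and endothelial cells alike, and 8 markers, Myod1 and Myf5 among them with Chrng, Chrna1, Tnni1, Mymk, Myh3 and Mylk4, were at 0 in its tendon-type cells. Neuron markers summed to 409 and 762 CPM (Gap43 and Stmn2 the most abundant), and 21.3% and 21.7% of them lay in 1 cell. Immune markers summed to 6.02 and 173 CPM, mostly Srgn, with 25.3% in 1 MKO/tdT cell, and Ptprc and Cd52 were at 0 in Het/tdT.

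Markers of the remaining lineages were summed in the same way. Chondrocyte markers, mostly Col2a1, summed to 808 and 829 CPM, and to 809 and 1628 in endothelial barcodes. Osteoblast markers summed to 580 and 373 CPM, mostly Ibsp, with 43.7% and 57.1% in 1 cell, Dmp1 at 0 in Het/tdT and Dlx3 at 0 in MKO/tdT. Endothelial markers summed to 25.05 and 31.6 CPM, mostly Egfl7, with Pecam1 and Cdh5 at 0 by the rule. Schwann cell markers summed to 95.3 and 56.9 CPM, mostly Fabp7, and keratinocyte markers to 35.0 and 91.3, with Krt10 and Krt14 the most abundant. Fascia markers summed to 393 and 350.4 CPM, mostly Creb5, and muscle connective tissue markers to 855 and 694, mostly Tcf4, where endothelial barcodes had 389 and 301 CPM and 1176 and 983 CPM. The part of these cell types in the differences between the libraries was not tested, and the differences without the 4 cells richest in such markers are given with the processing alternatives.

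For several of the most extreme ratios most UMIs of a library lay in 1 cell. Of the 12 lowest, Ptgds (-5.06) had 94.3% of its Het/tdT UMIs in 1 cell, as had Hbb-bs, and Spp1 (-2.20, osteopontin) 46.4%. On the higher side S100a9, a neutrophil gene, had 0 UMIs in the Het/tdT cells and 520 in the others, with 97.3% of them in 1 cell. The mast cell genes Cma1 and Cpa3 had 89.4% and 92.4% in 1 cell. Without the highest cell of each library their log2 ratios were still 3.74 and 3.09, with 3.57 and 3.19 in comparison cells, and Cma1 had a UMI in 1.38% of Het/tdT and 15.9% of MKO/tdT cells. No doublet caller was run.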

How the data were processed

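Sorted E14 cells were measured as 1 Het/tdT and 1 MKO/tdT 10x 3′ library. The deposited counts are whole UMIs for 32285 genes, mapped to mm10 by the authors, with Cell Ranger 5.0.0 in the matrix header and Cell Ranger 3.1.0, STAR and Seurat 3.1.1 in the submitters' processing notes. Reads had been down-sampled when the libraries were aggregated. Summed over deposited barcodes, UMIs were 156093779 (Het/tdT) and 128116615 (MKO/tdT). Barcode suffixes were paired with samples by the barcode numbers in the authors' summaries, and genotypes follow the quality control headings.

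UMIs were summed per library over the cells of the rule, and ratios carry exact binomial 95% intervals. Shares carry Clopper-Pearson intervals, levels Poisson intervals, and ratios of shares log intervals. A gene needed 200 UMIs and 1.5-fold, or 2-fold between populations with 50 UMIs in tendon-type cells of each library, counted or given by the level of the comparison cells. Genes were named from 36 lists, the 12 highest and 12 lowest ratios and the 20 highest folds over comparison cells. Trib2, Hmox1, Cwc22, Ptx3, Col25a1, the values of Mettl23 and genes named for subgroups alone were chosen after their values were seen. Members and lists were chosen with earlier results of these data known. Subgroups came from 1500 variable genes, 15 components, 15 neighbours and Leiden clustering (resolution 0.8). No doublet caller was run. Intervals were tested on simulated data. Python 3.11.15, SciPy 1.17.1, NumPy 2.4.6, scikit-learn 1.9.0, pandas 2.3.3, leidenalg 0.10.2, igraph 0.11.9 and matplotlib 3.10.9 were used, with GENCODE and RefSeq of GRCm38 for positions. Leaving out cells rich in other lineages, Tnmd alone, the highest cell per gene, the division by stress and the 50 UMIs counted in tendon-type cells alone were added after seeing the data. The count of lower genes in the list of tendon transcription factors is not reported here.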

Additional observations from a re-analysis of the deposited data

Results flagged for a closer look

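For 7 genes the ratio of MKO/tdT over Het/tdT was 1.5-fold or more in opposite directions in tendon-type and comparison cells, and this difference was not tested. Grem1, a BMP antagonist, had a log2 ratio of -0.74 in tendon-type cells and 0.60 in comparison cells, and -0.88 without the highest cell of each library. Fabp7, a Schwann cell gene, had -0.97 and 0.74, and -1.29 without the highest cells. Ptgds had -5.06 and 3.18, and -2.31 without the highest cells. The haemoglobin genes Hbb-bt (-4.48 and 1.14), Hbb-bs (-3.89 and 1.10), Hba-a1 (-4.38 and 0.94) and Hba-a2 (-4.39 and 0.87) rested on 1 Het/tdT cell, which held 94.4% of that library's haemoglobin UMIs. Without the highest cells their ratios were 0.00, 0.21, -0.19 and -0.52.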

How the results depend on the processing

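The share of tendon-type cells was lower in MKO/tdT under each alternative tried, with a log2 ratio of -1.01 where Tnmd and Scx each needed a UMI and -0.13 over barcodes with Col3a1. Counts of genes 1.5-fold higher and lower (151 and 154) became 232 and 233 with Tnmd and Scx at 3 or more, 106 and 86 at 10 or more, 99 and 95 with a UMI of each, 96 and 108 at 5 per 10000, and 60 and 55 after thinning to 5000 UMIs. A minimum of 50 UMIs gave 492 and 621, and of 1000 UMIs 35 and 15. Cells at or below the stress median gave 78 and 86, and above it 100 and 108. Without the cells richest in other lineages the counts were 137 and 150. Genes 2-fold higher and lower than comparison cells (53 and 38) became 142 and 165 against all kept barcodes outside the rule, 27 and 11 in cells thinned to 3000 UMIs, and 53 and 14 where the 50 UMIs had to be counted in tendon-type cells. Thinning and stricter minimums also lowered the number of genes measured.

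Kera turned from -0.65 in all tendon-type cells to 0.10 in cells above the stress median (32 and 31 UMIs), with -0.94 at or below it. Of the named genes' ratios 319 kept within their spread and 94 moved, and of list medians 351 and 8. No paired analysis was possible because each genotype had 1 library, and no replicate was left out for the same reason. Depth limits genes under 200 UMIs, such as Mkx and Kera, to wide intervals.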
